A study of Danio rerio with 6 samples.

Results

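The claudins described here are the 6 genes cldnb, cldne, cldnf, cldnh, cldni and cldn10b, taken by name from the 10022 rows of a gene count table. All were present, each as 1 row. The table holds 6 RNA-seq libraries of cells captured by laser from the distal pronephric tubule, part of the zebrafish embryo's kidney, at 48 hours post fertilization. The 3 control libraries came from epcam+/+ embryos and the 3 mutant libraries from epcam hi2151/hi2151 embryos, and all of them also carried Tg(wt1b:GFP) and Tg(cdh17:GFP). The cdh17 transgene labels the tubule and the wt1b transgene the glomerular end of the pronephros, and hi2151 is an allele of a retroviral insertion screen. No source used here gives the number of embryos in a library, so p-values measure the spread between these samples, which may in part be technical.

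Claudins are membrane-spanning proteins that form the strands of tight junctions. Depending on the member, they seal the space between neighbouring epithelial cells or line pores that let selected ions pass, and the set of claudins along a kidney tubule determines what crosses between its cells. Epcam is a cell adhesion protein of epithelia which, in mammals, binds claudin-7 and protects it from degradation. That is an effect on protein, whereas the values here are transcript counts. The question of this comparison is whether claudin transcripts differ where epcam is mutated.

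After subtraction of each library's lowest value, which the table carries as a constant, control libraries held 188022 to 746232 counts and mutant libraries 126861 to 250714. Levels are given in CPM, a count set against its library's total after scaling with edgeR's TMM factors, and intervals are 95% exact Poisson intervals, which cover counting error only. A floor of 3 counts equals 5.46 to 17.6 CPM for controls and 8.58 to 19.5 CPM for mutants. Tubule content differed between libraries of the same group. The kidney cadherin cdh17 was counted 1406, 1515 and 22 times in controls 1 to 3, against 300, 25 and 109 times in mutants 1 to 3, and the distal salt transporter slc12a3 had 798, 1108 and 13 against 155, 9 and 91. Control 3 and mutant 2 therefore held the fewest tubule counts. For the claudin members, ranges of the log2 fold change with single libraries left out are given in the closing section. In bulk captures, fewer cells of a type and less RNA per cell cannot be told apart. The sample descriptions of controls 1 and 2 begin with one code (NG-8793), and those of control 3 and all 3 mutants with another (NG-8710). Each code is taken here as a sequencing project, an inference that no label states. Within the second project control 3 is the only control.

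The targeted gene epcam had control counts of 10, 15 and 10 and 0 counts in each mutant. Its groups did not overlap, and edgeR's quasi-likelihood test without a filter on low counts gave an adjusted p of 0.272.

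Across the 6 claudins the members did not move together. Counts of cldn10b lay almost wholly in the mutants, those of cldne wholly in the controls, those of cldni and cldnf mainly in control 3, and cldnb and cldnh were counted in every library. None of the 6 passed the test between genotypes, the quasi-likelihood test of edgeR adjusted over all rows by Benjamini-Hochberg, at 0.05. That test called 0% of the 3869 rows kept by edgeR's expression filter, and 0.529% of all 10022 rows when no filter was used. DESeq2 called cldn10b alone and gave no adjusted p for cldnb and cldne, and limma-voom called 0 of the 2 members kept by the filter. Only cldnh and cldn10b passed the filter, so the other 4 members are given from the fit without it. At an unadjusted p under 0.05 in that fit, 1 of the 6 members (cldn10b) was counted, against 15.4% of all rows. The groups did not overlap for 2 of the 6 (cldne and cldn10b), against 17.3% of all rows. The highest level was in control 3 for 4 of the 6 (cldne, cldnf, cldnh and cldni), against 18.5% of all rows.

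**Figure D1:**
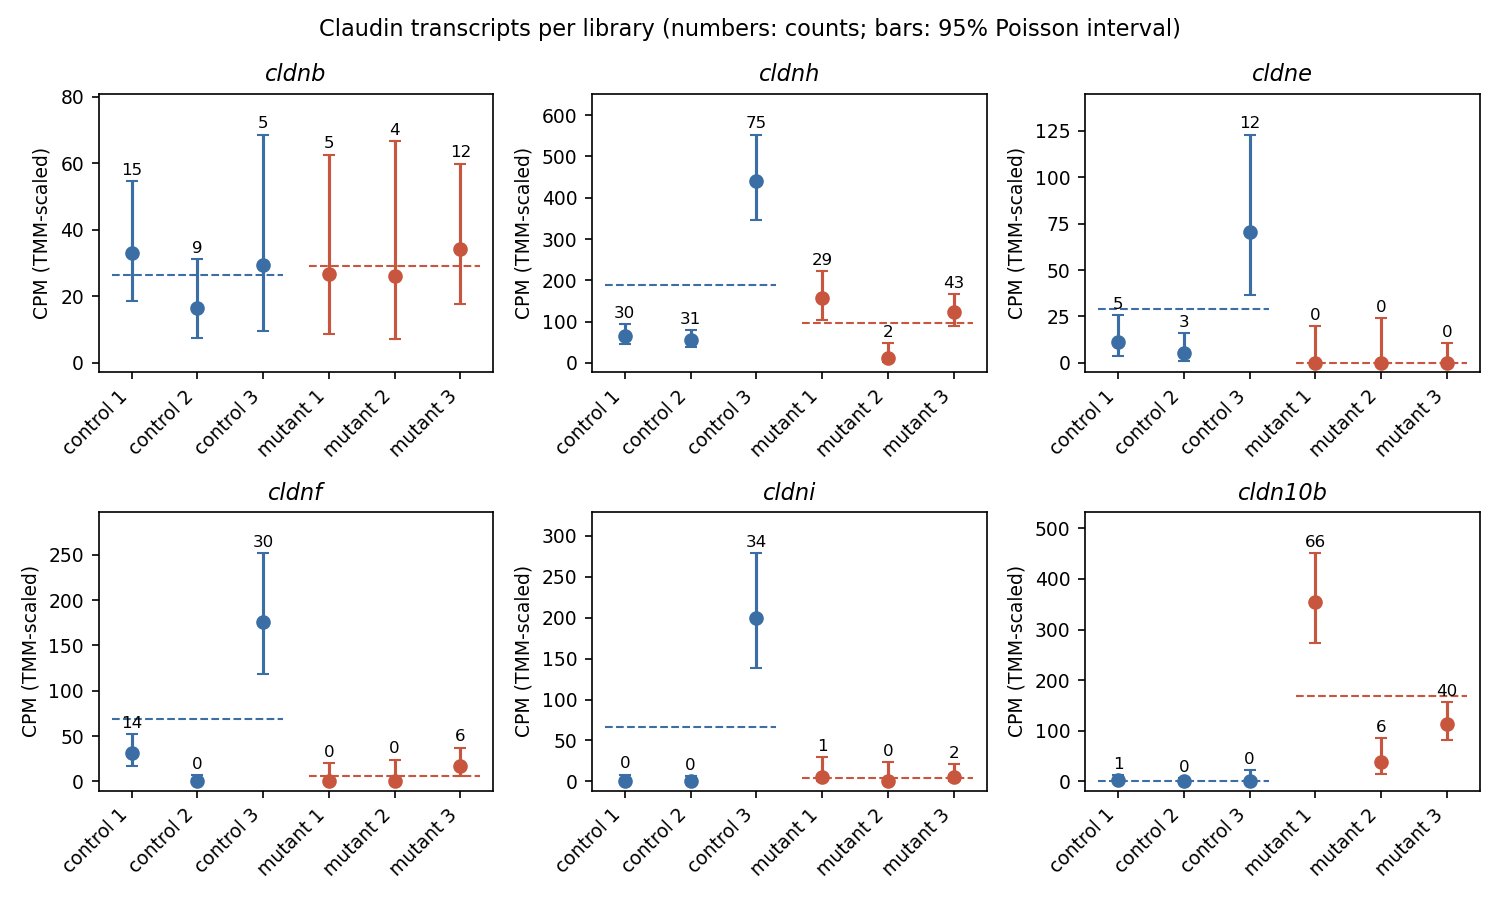
Level of each claudin in every library, in TMM-scaled CPM on linear axes that differ between panels. Points are single libraries (controls blue, mutants red), vertical bars are 95% exact Poisson intervals, dashed lines are group means and the printed numbers are counts. Only cldn10b is higher in every mutant than in every control, and cldne, cldnf, cldnh and cldni are highest in control 3.

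The claudins counted in every library are described first. Zebrafish cldnb is known as a claudin of many epithelia, among them the skin and the migrating lateral line primordium. It lies on GRCz10 chromosome 21 at 25729129 to 25730235, forward strand. It had 15, 9 and 5 counts in controls 1 to 3, which equal 33.1, 16.4 and 29.4 CPM. It had 5, 4 and 12 counts in mutants 1 to 3, which equal 26.8, 26.0 and 34.3 CPM. The groups overlapped, and every library's Poisson interval overlapped that of every other library. The group means were 26.3 ± 8.8 CPM (SD, n = 3) for controls and 29.05 ± 4.58 CPM in mutants, with a two-sided exact permutation p of 0.8. The log2 fold change, mutant over control, was 0.15 ± 2.01 (SE; adjusted p = 0.986 by edgeR). From pooled counts the mutants were 1.23-fold higher, with a 95% interval of 0.667 to 2.23 that covers counting error only. Without the TMM factors cldnb had 27.2, 12.1 and 26.6 CPM in controls 1 to 3 against 29.0, 31.5 and 47.9 CPM in mutants 1 to 3, so on that scale every mutant lay above every control (exact permutation p = 0.1, the smallest that 3 against 3 libraries allow).

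The reference name table gives cldnh the symbol cldn3c, after claudin-3, which in mammals is a sealing claudin of tight epithelia. The gene lies on chromosome 21 at 25702690 to 25704806, reverse strand. It had 30, 31 and 75 counts in controls 1 to 3 (66.3, 56.4 and 441 CPM), against 29, 2 and 43 counts in mutants 1 to 3 (156, 13.0 and 123 CPM). Control 3 was the highest library and mutant 2 the lowest, and mutants 1 and 3 lay between control 3 and the other two controls. The means were 187.9 ± 219 CPM (SD, n = 3) for controls and 97.18 ± 74.7 CPM in mutants, with an exact permutation p of 0.8. The log2 fold change was -0.97 ± 1.37 (SE; adjusted p = 0.852 by edgeR). It was 0.67 ± 1.57 without control 3 and -0.45 ± 1.59 without mutant 2. Within the project of control 3 it was -2.17 ± 1.72 (adjusted p = 0.574 by edgeR). The direction for cldnh thus turned with a single library.

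Beside the tubule content of each library, cldnh stood at 4.27, 4.02 and 466 counts per 1000 counts of the pan-pronephric list in controls 1 to 3. That list sums 10 tubule genes, such as cdh17, pax2a and atp1a1a.4. In mutants 1 to 3 the same ratio for cldnh was 14.7, 6.64 and 36.4. The value of mutant 2 rests on 2 counts and lies under its floor of 9.97 (3 counts). Its place above controls 1 and 2 is therefore uncertain. As point values the groups overlapped through control 3 alone, and the exact permutation p was 1.

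Next come the claudins with most of their counts in the controls. In zebrafish, cldne and cldni are known as transcripts of the skin. On chromosome 15 cldne (2675312 to 2677394, reverse strand) lies beside cldnf (2686210 to 2689068, reverse strand), with 8815 bases between them and no other row of the table in that gap. The gene cldne had 5, 3 and 12 counts in controls 1 to 3, which equal 11, 5.46 and 70.5 CPM. It had 0 counts in each mutant, where a floor of 3 counts equals 16.1, 19.5 and 8.58 CPM. The groups did not overlap, but controls 1 and 2 stood below the floors of mutants 1 and 2, so levels like theirs were not detectable there. The level of control 2 also lay below the floor of mutant 3. Against a floor of 3 counts per library, cldne was at least 1.97-fold lower in mutants, with an exact permutation p of 0.1. Of all rows, 2.13% had 0 counts in all 3 mutants. The adjusted p was 0.33 by edgeR, with an unadjusted p of 0.0525 in the same test. Without control 3 the mean of the controls lay under the mean floor of 14.7 CPM, so no fold is given.

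The gene cldnf had 14, 0 and 30 counts in controls 1 to 3, which equal 30.9, 0 and 176 CPM. It had 0, 0 and 6 counts in mutants 1 to 3, the last of which equals 17.2 CPM. Control 2 was at 0 like mutants 1 and 2, so the groups overlapped. The means were 69.1 ± 94.2 CPM (SD, n = 3) for controls and 5.72 ± 9.9 CPM in mutants (exact permutation p = 0.4). Its log2 fold change was -3.33 ± 2.07 (SE; adjusted p = 0.446 by edgeR) and -1.23 ± 2.35 without control 3. Without mutant 3 no count was left in the mutants, and the bound was at least 3.88-fold lower. Within the project of control 3 the log2 fold change was -4.61 ± 1.94 (adjusted p = 0.538 by edgeR).

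The gene cldni lies on chromosome 3 at 30790404 to 30795479, forward strand. It had 34 counts in control 3 (200 CPM, interval 138 to 279) and 0 counts in controls 1 and 2. Mutants 1 to 3 had 1, 0 and 2 counts. Of all rows, 7.91% had counts in control 3 but in no other control. From pooled counts the controls were 6.67-fold higher (95% interval 2.1 to 33.9, counting error only; 10.9 without control 1 and 12.6 without control 2), and the exact permutation p was 1. The adjusted p was 0.384 by edgeR. Without control 3 both groups were at or under the floor and no fold is given, so the whole difference for cldni lay in 1 library.

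Summed skin markers were highest in the library where these 3 claudins were highest, control 3. The keratinocyte and periderm list, of which 20 rows were in the table, summed to 2730, 3519 and 43510 CPM of the library total in controls 1 to 3, against 3640, 1143 and 1009 in mutants 1 to 3. The skin keratin krt4 had control counts of 97, 179 and 4263 and mutant counts of 7, 2 and 17. The basal skin regulator tp63 had 0, 0 and 42 counts against 1, 1 and 4. Summed counts of cldne, cldnf and cldni were 34.4, 4.02 and 404 CPM of the library total in controls 1 to 3, against 5.81, 0 and 31.9 in mutants 1 to 3. Control 3 was the highest library for both sums. Among the other libraries the sums did not follow each other, as controls 1 and 2 and mutant 1 had like skin sums beside claudin sums of 34.4, 4.02 and 5.81. The sum of cldnb and cldnh was highest in control 3 too, at 81.5, 53.6 and 425.5 in controls 1 to 3. In mutants 1 to 3 it was 197, 47.3 and 219. Of the 20 skin rows 15 were highest in control 3, and krt8, krt18, krt97, krt1-c5 and krt1-19d were not, with krt8 at 1204, 1883 and 384 counts in the control libraries against 516, 74 and 131. Most skin list counts of controls 1 and 2 and mutant 1 (1508, 2626 and 627 in all) were thus krt8. The liver, gut and yolk list was highest there too, at 9221, 11930 and 103900 in the controls against 482 to 1309 in the mutants, while the pan-pronephric list was lowest there, at 856. The part of these cells in the claudin differences was not tested.

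Set against the same skin list, cldne was at 3.32, 1.14 and 1.47 counts per 1000 skin list counts in controls 1 to 3. Its 0 counts in mutants 1 to 3 have floors of 4.78, 20.7 and 11.9 on this ratio, above every control value, so a control-like ratio of cldne to skin counts was not detectable in the mutants. The counts of cldnf and cldni in the mutants were too few for the ratio as well, apart from cldnf in mutant 3. There cldnf stood at 23.7 counts per 1000 skin list counts, against 9.28, 0 and 3.67 in controls 1 to 3. The row krt8 made up 1204 of the 1508 skin list counts in control 1 and 1883 of 2626 in control 2. It made up 384 of 8181 in control 3 and 131 of 253 in mutant 3. The ratio thus depends strongly on krt8, and its order between libraries is not one of the other skin rows.

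**Figure D2:**
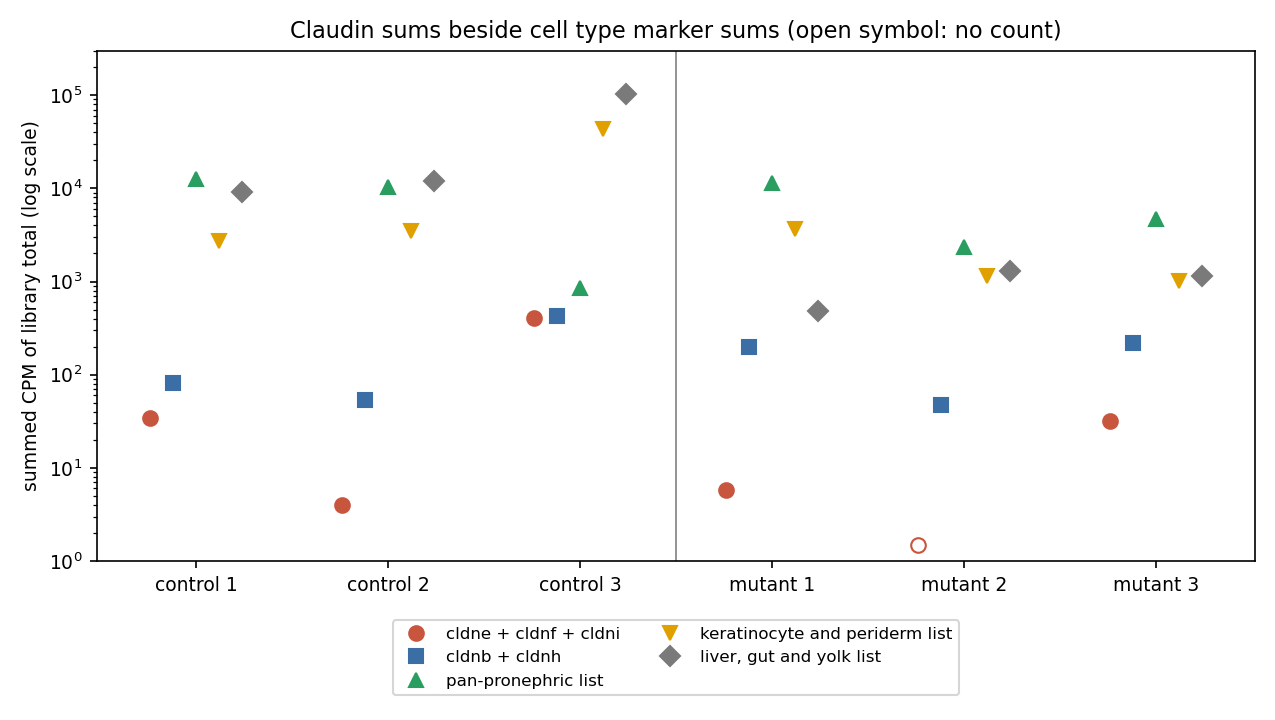
Summed CPM of the library total (log axis) of cldne, cldnf and cldni, of cldnb and cldnh, and of 3 marker lists, with the libraries along the horizontal axis. Each point is 1 library, and the open symbol marks mutant 2, where cldne, cldnf and cldni had no count. Control 3 has the highest skin sum (43510) and the lowest pan-pronephric sum (856). It also has the highest sum of cldne, cldnf and cldni (404) and of cldnb and cldnh (425.5).

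The member with counts mainly in the mutants was cldn10b. The name table lists it as CLDN10, and in mammals claudin-10 lines ion-selective pores between cells, one form of which carries cations in the thick ascending limb of the kidney. It lies on chromosome 9 at 200017 to 203313, forward strand, and no other row of the table overlaps it. The gene cldn10b was counted 1, 0 and 0 times in controls 1 to 3, the first of which equals 2.21 CPM. It had 66, 6 and 40 counts in mutants 1 to 3, which equal 354, 39.0 and 114 CPM. Every mutant lay above every control, and mutant 1 held most of the counts. At most 1 count in the controls together was found for 7.24% of all rows. The intervals of mutants 1 and 3 (274 to 451 and 81.7 to 156 CPM) lay above those of all controls. The interval of mutant 2 (14.3 to 84.9 CPM) overlapped that of control 3, whose upper limit is 21.7 CPM.

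The means of cldn10b were 0.736 ± 1.28 CPM (SD, n = 3) for controls and 169 ± 165 CPM in mutants, with an exact permutation p of 0.1. From pooled counts the mutants were 190-fold higher, with a 95% interval of 33.5 to 7584 that covers counting error only. This ratio was 101 without control 2 and 107 without mutant 1. It rests on a single count in control 1, and without that library no control count is left and the mutants were at least 14.7-fold higher. Its log2 fold change was 7.21 ± 1.84 (SE), and its adjusted p was 0.147 by edgeR, so it did not pass, and its unadjusted p in that fit was 0.00156. With limma-voom the adjusted p was 0.0908. DESeq2 gave cldn10b an adjusted p of 0.0129 and called 6.15% of the 6623 rows to which it gave an adjusted p. Of the 6 claudins only cldn10b is among the 379 rows of the authors' deposited table, with an FDR of 0.0189. Within the project of control 3 the log2 fold change was 8.18 ± 3.48 (adjusted p = 0.463 by edgeR), where control 3 at 0 counts was the only control.

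In proportion to tubule content, cldn10b was at 0.142, 0 and 0 counts per 1000 pan-pronephric counts in controls 1 to 3, against 33.4, 19.9 and 33.8 in mutants 1 to 3. The floor of 3 counts on that ratio is 0.427 and 0.389 in controls 1 and 2, far below the mutants. In control 3 it is 18.6, so a ratio like that of mutant 2 was barely above what control 3 could detect. The exact permutation p of the ratio was 0.1. A list of neuron and glia genes also stood higher in the mutants. It summed to 79.7, 12.1 and 26.6 CPM of the library total in controls 1 to 3. In mutants 1 to 3 the sums were 267, 851 and 534.5. On that scale cldn10b had 383, 47.3 and 160 CPM in these mutants, the value of mutant 2 from 6 counts. Of the 17 symbols on the list 5 are rows of the table, the claudin gene cldnk among them, and its defining marker elavl3 is not. Its rows nova1 and zic2a had 0 counts in every control, so they could add to the mutant sums only. The higher sum in the mutants is therefore no independent result on neural cells. Its part in the cldn10b difference was not tested.

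**Figure D3:**
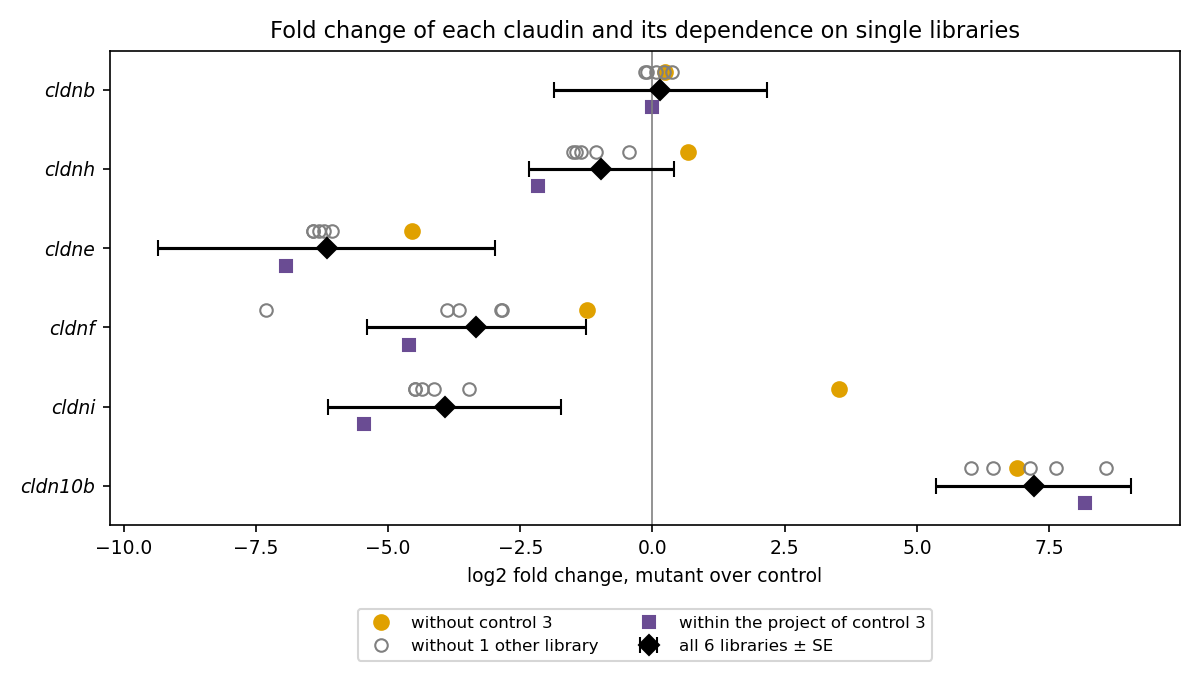
Log2 fold change, mutant over control, of each claudin. Black diamonds with bars are the fit on all 6 libraries ± SE, yellow points the fit without control 3, open circles the fits without 1 other library and squares the fit within the project of control 3. Leaving out control 3 moves cldnh from -0.97 to 0.67 and cldni across 0. With any single library left out, cldn10b stays between 6.03 and 8.58. Where a group has no counts (cldne) or 1 to 3 counts (cldni, cldn10b), the fitted value depends on the prior count and is no bound.

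Among themselves the members followed different library patterns. Pearson's r of log2 CPM over the 6 libraries, given as a description, was 0.865 between cldne and cldnf, 0.821 between cldne and cldni and 0.816 between cldnh and cldni. Control 3 is the highest library for each of these genes. As cldne had 20 counts in all and 0 in each mutant, its values of r depend on control 3 and the prior count. With cldn10b the value was -0.72 for cldne, -0.476 for cldnf and -0.0351 for cldnh. Summed over all 6 members the level was 118, 57.6 and 830 CPM of the library total in controls 1 to 3, against 586, 94.6 and 411 in mutants 1 to 3. The sums overlapped between groups.

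Among 6215 rows with a mean count of at least 10, the pattern most like that of cldnh was that of tjp1b (r = 0.987 over 6 libraries), which encodes a scaffold protein of tight junctions. Control counts of tjp1b were 69, 82 and 111, and mutant counts 40, 8 and 78. Next came myo1c (0.979) and zgc:91944 (0.974). The rows most like cldni were si:dkeyp-10a3.2 (0.999), ATG14 (0.99) and the skin keratin krtt1c19e (0.984), the last with control counts of 0, 0 and 308 and mutant counts of 0, 0 and 4. For cldnf they were mbpb (0.999), copz1 (0.992) and FBXO2 (0.987), and for cldnb cluhb (0.986), hivep1 (0.984) and PEX5L (2 of 2) (0.98). Those most like cldn10b were zgc:113691 (0.998), si:dkey-30k6.5 (0.995) and dpyda.1 (0.993), each with 0 counts in all controls. With 6 points and 6215 rows compared, values over 0.9 were not particular to the rows named. They were reached by 29 rows beside cldnh, 34 beside cldnb, 43 beside cldnf, 87 beside cldni and 122 beside cldn10b. The gene cldne, with 20 counts in all, was too sparse for this comparison.

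Genomic neighbours among the claudins were alike in some cases and not in others. The adjacent genes cldne and cldnf had the highest r of any pair of members (0.865, with the limit on cldne given above). Both were highest in control 3. Pairs on different chromosomes came close, at 0.821 for cldne with cldni and 0.812 for cldnf with cldni. On chromosome 15 cldnj (2667849 to 2669319) lies 5992 bases from cldne, with control counts of 1, 0 and 0 and mutant counts of 29, 0 and 2. Its neighbours cldne and cldnf had most of their counts in the controls. On chromosome 21 cldnc (25717663 to 25719514) lies between cldnh and cldnb. Its control counts were 11, 27 and 0 and its mutant counts 2, 1 and 17, with 0 in control 3 where cldnh was highest. No source used here says how reads shared between similar claudin genes were assigned, so counts of such genes are uncertain.

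The rest of the family gives the members their background. By the table's or the name table's symbol, 9 other rows are claudin genes or, for cldnd1b, a gene with a claudin domain. Of these, 6 were higher and 3 lower in the mutants in the fit without a filter, none passed over all rows by edgeR (1, cldn17, by DESeq2, with an adjusted p of 0.034), and 3 had an unadjusted p under 0.05, all of them higher. In the same fit 10.8% of all rows were higher and 4.59% lower at that threshold. Most abundant by mean CPM was cldn7b, which encodes a claudin-7, the partner of epcam in mammals. It had 103, 128 and 42 counts in controls 1 to 3, which equal 227, 233 and 247 CPM. It had 18, 5 and 24 counts in mutants 1 to 3, which equal 96.6, 32.5 and 68.6 CPM. In CPM the control libraries lay close together, control 3 included, and above every mutant. As point values, that separation did not hold in proportion to tubule content. The pan-pronephric list summed to 7023 (control 1), 7712 (control 2) and 161 (control 3) counts. Its mutant sums were 1976, 301 and 1182 counts. Per count of that list, cldn7b stood higher in mutant 3 than in controls 1 and 2, so the groups overlapped. Control 3, with 42 cldn7b counts beside 161 list counts, stood far above every other library on this ratio. No interval or test was computed for the ratio.

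The means of cldn7b were 235.8 ± 10 CPM (SD, n = 3) for controls and 65.9 ± 32.1 CPM in mutants, 3.58-fold apart, with an exact permutation p of 0.1. Its pooled ratio was 3.42 (95% interval 2.5 to 4.76, counting error only). It did not pass either, with a log2 fold change of -1.73 ± 1.19 (SE; adjusted p = 0.65 by edgeR). Of all rows, 6.08% had every control above every mutant.

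Among the other claudin rows, cldn17 had control counts of 0, 0 and 1 and mutant counts of 30, 10 and 14, which gives a ratio of 91.8 from pooled counts (95% interval 15.8 to 3691). That ratio was 48.8 without control 2, 55.9 without mutant 1, 56.3 without control 1 and 138 without mutant 3, and without control 3 no control count is left and the bound is at least 14.7-fold. It was listed by the authors' deposited table with an FDR of 0.0435, and edgeR gave it an adjusted p of 0.217. On the same strand cldn17 overlaps zgc:110333 (cldn8.2 in the name table), which had 45 counts in mutant 3 and 0 in every other library, so the reads of this pair may be split between them. The row zgc:136892 (cldn30 in the name table) had 0, 0 and 5 counts against 23, 15 and 11, with an adjusted p of 0.445 by edgeR. The myelin claudin cldnk had 0, 5 and 0 counts against 2, 18 and 23, with an adjusted p of 0.353 by edgeR. For cldnj the pooled ratio was 52.7 (95% interval 8.78 to 2147), but 4.66 (0.242 to 275) without mutant 1. It was 28.0 without control 2 and 99.95 without mutant 3, and without control 1 no control count is left and the bound is at least 4.66-fold. Apart from cldn7b, none of these 9 rows had more than 58 counts over the 6 libraries.

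**Figure D4:**
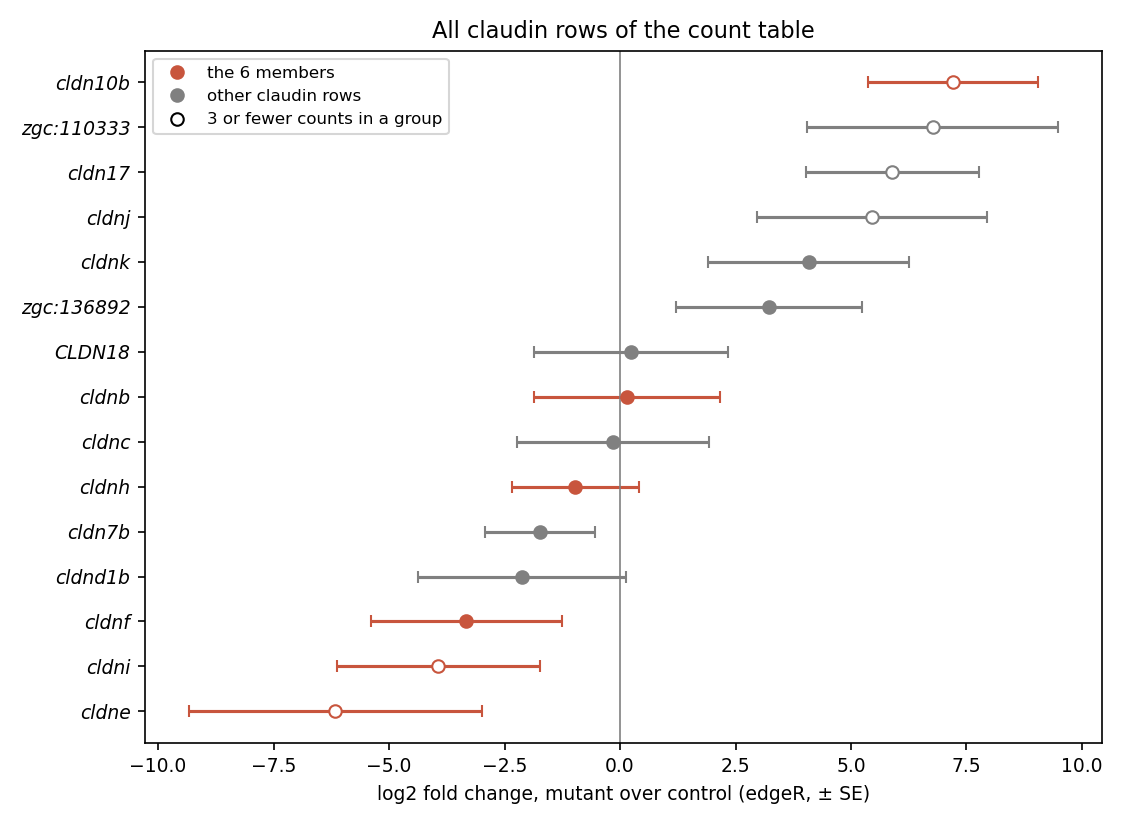
Log2 fold change, mutant over control, with its SE from edgeR's test for all 15 claudin rows of the table. Red points are the 6 members and grey points the other rows, and open points mark genes with 3 or fewer counts in a group, whose fitted value is no bound. Genes spread to both sides of 0, and none of the 15 passed edgeR's test after adjustment over all rows.

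Other tight junction genes were read from a list of 67 symbols, alternative names included, of which 28 were rows of the table. The list holds scaffolds, other membrane proteins of the junction and polarity proteins. Of the 15 that passed the filter 6 were higher and 9 lower in the mutants, and 0 had an unadjusted p under 0.05 in edgeR's test (0 adjusted), against 11.2% of all 3869 rows. Their median log2 fold change was -0.31, beside -0.10 over all rows tested. Among all 28 rows in the fit without a filter, 12 were higher and 16 lower. In that fit 1 of the 28 had an unadjusted p under 0.05, against 15.4% of all 10022 rows.

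That row was cgna, a cingulin gene whose product links tight junctions to the actomyosin cytoskeleton. Control counts were 0, 0 and 2 and mutant counts 73, 5 and 20, for a ratio of 83.3 from pooled counts (95% interval 22.4 to 697; 29.1 without mutant 1, 44.2 without control 2, 51.1 without control 1 and 134 without mutant 3). Without control 3 it had no control count, and the bound was at least 26.6-fold. The adjusted p of cgna was 0.178 by edgeR and 0.0494 by DESeq2. Next among the higher rows were ildr2, a protein of tricellular junctions, with 1, 0 and 2 counts against 12, 13 and 9, and inadl, a polarity scaffold, with a log2 fold change of 1.39 ± 1.21 (SE). The lower rows with the smallest p were amotl2a, an angiomotin-like scaffold, at -2.42 ± 1.31, and the scaffolds magi1b and magi3a at -2.20 ± 1.31 and -1.73 ± 1.19. Each was far higher in 1 control than in the others. In controls 1 to 3, amotl2a had 130, 1200 and 94.1 CPM and magi3a 161, 1080 and 294 CPM. The same libraries had 214, 124 and 1390 CPM of magi1b. The groups overlapped for amotl2a and magi1b but not for magi3a. For magi3a that held with the TMM factors, where the exact permutation p was 0.1. Without those factors the exact permutation p was 0.3, so the groups overlapped on that scale. None of these 6 rows passed edgeR's test after adjustment.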

How the data were processed

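The deposited table holds whole-number gene counts, called filtered raw counts by its file name, for 10022 rows in 6 libraries. Per the submitters' processing notes, reads were handled with TopHat2 2.1.0 and Trimmomatic 0.36.0, the build was GRCz10 and DESeq2 was used; no source used here gives the counting tool. Per the labels' protocols, cDNA was made with random and oligo(dT) primers, amplified as a whole transcriptome and sequenced without strand information, so intervals and floors cover counting error only. The authors' deposited table gives adjusted p-values (FDR) for 379 rows, with no fold change.

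Each library's lowest value (11, 0 and 32 in controls 1 to 3; 30, 31 and 17 in mutants 1 to 3) was subtracted, an inference from the values that no label states. Tests used R 4.3.3 with edgeR 4.0.16 (TMM, filterByExpr, robust quasi-likelihood test, group as the only term), limma 3.58.1 and DESeq2 1.42.0. A check on simulated counts required recovery of large changes by edgeR alone, at a spread set low. It does not show what the tests can detect at the spread of these data. Standard errors were taken as the log2 fold change over the root of F. Correlations used log2 CPM with a prior count of 2. Members were taken by gene name, and members and lists were chosen with earlier results of these data known. Named besides them were epcam; the 4 most abundant other claudin rows and any with an unadjusted p under 0.05; the 3 higher and 3 lower junction rows with the smallest p; the 3 rows most like each member of at least 30 counts; and marker genes. The name table held the identifiers of all 6 members. No sequences are shown.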

Additional observations from a re-analysis of the deposited data

How the results depend on the processing

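The number of rows past an adjusted p of 0.05 was 0 in the main edgeR test, 53 without a filter, 407 with DESeq2, 12 within the project of control 3 and 6 in a fit with that project as a term; it was 0 with each library left out. For cldn10b, 1 of 17 alternatives passed (DESeq2, log2 fold change 7.43, adjusted p = 0.0129), and adjusted p-values of the others reached from 0.0908 to 0.705 (values as deposited, log2 fold change 1.95). Directions that turned were those of cldnb with the project as a term (-0.01) or within the project of control 3 (-0.01), cldne (0.13) and cldni (0.03) on the values as deposited, cldni with limma-voom (0.21), and, with control 3 and mutant 2 both left out (chosen after seeing the data), cldnh (1.30) and cldni (4.18). With single libraries left out the log2 fold changes ranged from -0.15 to 0.36 for cldnb, -6.42 to -4.54 for cldne, -7.31 to -1.23 for cldnf, -1.50 to 0.67 for cldnh, -4.49 to 3.53 for cldni and 6.03 to 8.58 for cldn10b. The causes were not tested. Upper-quartile scaling moved the median log2 fold change of all rows from -0.10 to 0.19 and turned no member.

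For libraries with the same replicate number, deviations from the group means correlated at 0.0802, -0.0569 and 0.0283. Other pairs of a control and a mutant ranged from -0.124 to 0.108. These values cannot decide whether such libraries were paired, as the deviations within a group of 3 sum to 0. The replicate block gave a log2 fold change of 7.23 for cldn10b (adjusted p = 0.297 by edgeR), 0 rows past the threshold and no other change of call. The filter with a mean count of at least 10 gave no separate value for cldnb, cldne, cldnf and cldni. Depth limits mutants 1 and 2 and control 3 most, where 3 counts equal 16.1, 19.5 and 17.6 CPM, above the cldne level of controls 1 and 2.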
